A study of Mus musculus with 2 samples.

Results

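A group of 7 microRNA genes linked to the choroid plexus was measured in the forebrain of mouse embryos: Mir204, Mir211 and 5 genes in introns of the serotonin receptor gene Htr2c, which are Mir764, Mir1912, Mir1264, Mir1298 and Mir448. They are 7 of the 1973 microRNA genes in the deposited count tables, and all 7 were found there. They were chosen by gene name with their counts in these same libraries already known, so their levels and the differences between the libraries are given as a description. The tissue came from healthy B6NCrl embryos, males and females pooled, at embryonic day 13.5. Small RNA below a stated size limit was sequenced in 2 libraries, biological replicates 1 and 2 of 1 group with no treatment and no second condition. The libraries carry different biosample identifiers but 1 donor identifier in common. Which embryos each pool held is not stated in the labels, so part of the spread between the libraries may be technical.

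The choroid plexus is the secretory epithelium of the brain ventricles, which makes cerebrospinal fluid. It arises from the dorsal midline of the neural tube, and its epithelial cells bear tufts of cilia. Mir204, in the cation channel gene Trpm3, is known for high expression in choroid plexus and in the pigment epithelium of the eye. Mir211, in the related channel gene Trpm1, is known from pigment cells. Htr2c is abundantly transcribed in choroid plexus epithelium and also in some neurons. MicroRNAs in introns are usually cut from the transcript of their host gene, after which the seed, bases 2 to 8 of the mature strand, guides the choice of target RNAs.

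Of the 7 genes, 7 had at least 1 mature sequence in the RefSeq table (GRCm38.p6), 12 sequences in all. The tables count reads per gene, so which arm of a hairpin gave the reads cannot be read from them. Mir204 and Mir211 are shown first because their 5p sequences share a seed, printed in capitals:
miR-204-5p: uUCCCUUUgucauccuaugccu
miR-211-5p: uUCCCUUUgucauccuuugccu
miR-204-3p: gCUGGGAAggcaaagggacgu
miR-211-3p: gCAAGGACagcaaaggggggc

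The 5p sequences, 22 bases each, differed by a single substitution, A17U, with Mir204 as the reference and positions counted from 1 at the 5′ end. Their first 16 bases were identical, and no other hairpin in the RefSeq table shared a longer exact stretch with either. The 3p sequences had different seeds and 14 identical bases in a global alignment of 21 bases against 21. A read that ends within the first 16 bases would match both genes equally well, and how many such reads the libraries held was not measured. Besides these genes, 1 of the 1058 genes searched, Mir7670, has a mature sequence with the same seed, and it had 1 count in replicate 1 and 0 in replicate 2.

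The Htr2c intron genes form no seed family. Sequences of the 3 with the most reads are shown to let their seeds, again in capitals, be compared:
miR-1298-5p: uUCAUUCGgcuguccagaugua
miR-1298-3p: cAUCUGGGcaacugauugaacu
miR-448-5p: gAACAUCCugcauagugcugcc
miR-448-3p: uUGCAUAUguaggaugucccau
miR-1264-3p: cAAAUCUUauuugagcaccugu

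No seed was shared among the Htr2c intron genes or between them and Mir204 or Mir211. Across the mature sequences searched, 1 seed of this host gene recurred elsewhere, that of miR-764-3p in miR-7062-5p, and Mir7062 had 5 counts in replicate 1 and 0 in replicate 2. The longest exact stretch shared with any other hairpin was 12 bases for miR-1298-5p and for miR-448-3p and shorter for the other mature sequences of these 5 genes. None of the 7 genes had a copy, taken as another annotated microRNA transcript with an exact stretch of 20 bases. Reads that map to several places are totalled apart from the genes and made up 40.6% (replicate 1) and 43.9% (replicate 2) of the reads.

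On the GRCm38 build (mm10) each of the 7 genes lies in an intron on the strand of its host. Mir204 (ENSMUSG00000065507) lies on chromosome 19 at 22750605 to 22750672, in intron 6 of 24 of Trpm3. Mir211 (ENSMUSG00000065585) lies on chromosome 7 at 64205806 to 64205911, in intron 6 of 26 of Trpm1. The version of the Mir204 identifier in the tables is older than that in the annotation used for positions, so the counted interval may differ from these bounds. In Htr2c (chromosome X, 146962513 to 147197277) Mir764 lies at 147002259 to 147002366, Mir1912 at 147009441 to 147009527, Mir1264 at 147010601 to 147010686 and Mir1298 at 147064905 to 147065002, all in intron 3 of 6. Mir448 lies at 147158210 to 147158321, in intron 5. Only 1073 bases separate Mir1912 from Mir1264, against 54218 between Mir1264 and Mir1298 and 93207 between Mir1298 and Mir448. Intron numbers refer to the host's longest basic transcript that spans the gene.

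Gene counts totalled 4117752 in replicate 1 and 3908953 in replicate 2. Levels are in CPM, counts relative to 1000000 gene counts of a library, so that 1 count equals 0.243 and 0.256 CPM. Errors are SDs over the 2 libraries unless stated otherwise. CPM compares reads, since capture can differ between microRNAs and was not measured here. Of the microRNA genes of neural progenitors and neurons, 8 of 10 in the tables had at least 10 counts in each library, against 19.1% of all genes. Lists of other cell types were detected as fully, such as 7 of 7 epithelial and 4 of 4 blood and leukocyte genes. Detection therefore cannot check the labelled tissue. The 10 neural genes held 2.54% ± 0.262 of gene counts. Of these 10 genes, 7 had a copy, so that reads shared between copies may be missing from this share, while none of the 7 members had one. Markers of the choroid plexus other than these microRNAs were not analysed here, so whether the reads came from its cells was not tested.

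Together the 7 genes held 0.427% (95% Wilson interval 0.421 to 0.434) of replicate 1's gene counts and 0.260% (0.255 to 0.265) of those of replicate 2, a mean of 0.344% ± 0.118. The 5 Htr2c intron genes held 0.209% ± 0.0857 and Mir204 with Mir211 0.135% ± 0.0327. Intervals account for counting error alone and hold no other spread between libraries. They may be too narrow even for that, because PCR copies of a molecule are counted as separate reads. All 7 genes had counts in both libraries, and 5 reached 10 counts in each, the floor used here for detection. That floor was reached by 377 of the 1973 genes. Mir1912 and Mir764 reached it in replicate 1 but not in replicate 2.

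Mir1298 was the most abundant member, with 9696 counts in replicate 1 and 5121 in replicate 2. These counts are 2355 and 1310 CPM, a mean of 1832 ± 739 CPM. It ranked 65th among all genes in replicate 1 and 81st in replicate 2, and the higher level was in replicate 1. Its host transcript encodes a G protein-coupled receptor that is well known for RNA editing.

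Mir204 had 6459 and 4336 counts, or 1569 and 1109 CPM, a mean of 1339 ± 325 CPM, at ranks 78 and 87. The gap between the means of Mir1298 and Mir204 was smaller than the SD of Mir1298, although Mir1298 was the higher of the pair in both libraries. The reads of Mir1298 outnumbered those of Mir204 by 1.501 times in replicate 1 (95% Clopper-Pearson interval 1.45 to 1.55) and by 1.18 times in replicate 2 (1.13 to 1.23). These intervals did not overlap. The proportion between the Htr2c and Trpm3 products thus differed between the libraries by more than the counting error the intervals cover.

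Mir448, the member nearest the end of Htr2c, had 948 and 452 counts, which are 230.2 and 116 CPM. Mir1264 had 402 and 213 counts, which are 97.6 and 54.5 CPM. Their means were 173 ± 81.0 and 76.1 ± 30.5 CPM, a gap larger than either SD, and Mir448 was above Mir1264 in both libraries. Both stood well below Mir1298, which comes from the same host.

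Mir211 had 41 and 29 counts, or 9.96 and 7.42 CPM, a mean of 8.69 ± 1.79 CPM. The reads of Mir204 outnumbered those of its seed partner by 158 times in replicate 1 (95% Clopper-Pearson interval 116 to 219.7) and by 149.5 times in replicate 2 (104 to 224). The intervals overlap almost entirely, so a difference in this proportion between the libraries was not detectable at this depth. Of the reads counted on the genes that share this seed, nearly all were thus counted at the Trpm3 locus in both libraries.

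Mir1912 had 30 and 9 counts and Mir764 had 21 and 4, which are 7.29 and 2.30 CPM and 5.10 and 1.02 CPM. Their means of 4.79 ± 3.52 and 3.06 ± 2.88 CPM lay closer together than either SD, and Mir1912 stood below Mir211 by little more than its own SD. Both were higher in replicate 1. Of the tables' other microRNA genes in Htr2c, the predicted genes Gm22650 and Gm24627, the first had 3 counts in replicate 1 and 0 in replicate 2 and the second 0 in both. A count of 0 allows up to 3 counts, or 0.729 CPM in replicate 1 and 0.767 CPM in replicate 2. Trpm3 and Trpm1 held no microRNA gene in the tables besides Mir204 and Mir211.

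**Figure D1:**
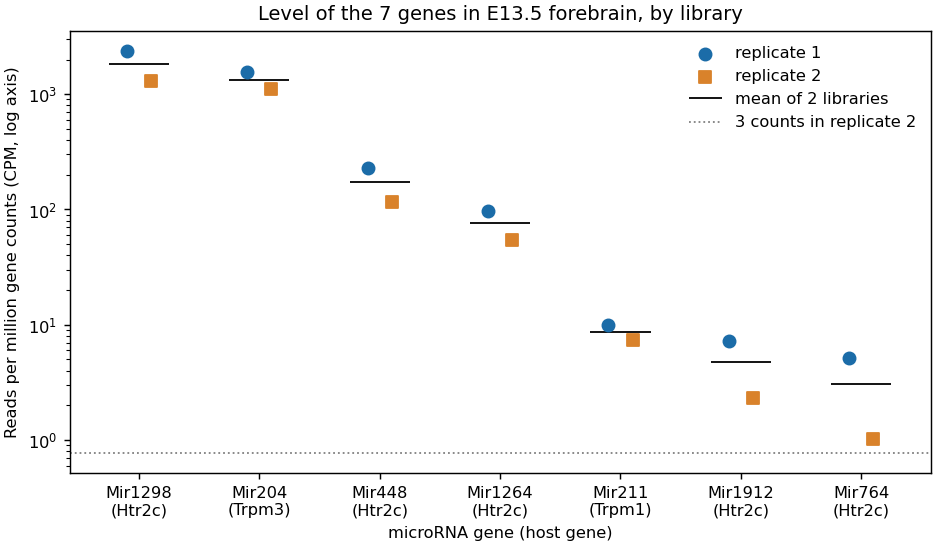
Level of each of the 7 genes in CPM (log axis) in replicate 1 (circles) and replicate 2 (squares), with the mean of the 2 libraries as a bar and the level of 3 counts in replicate 2 as a dotted line. For each gene the circle lies above the square, and the means run from 1832 CPM for Mir1298 to 3.06 CPM for Mir764.

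Within Htr2c the products differed widely in reads although they share a host gene. In replicate 1, Mir1298 made up 87.4% of the 5 genes' counts, with a 95% Wilson interval of 86.7 to 88.0, and in replicate 2 it made up 88.3%, with 87.5 to 89.1. Mir448 made up 8.54% and 7.79% and Mir1264 3.62% and 3.67%. Mir1912 made up 0.270% and 0.155%, and Mir764 0.189% and 0.0690%. The intervals of the 2 libraries overlapped for each of the 5 genes, in part only for Mir1298. Overlap is not a test, and a difference in the make-up of the locus was not tested. The proportion of Mir1298 to Mir1264 was 24.1 in replicate 1 (Clopper-Pearson interval 21.8 to 26.7) and 24.0 in replicate 2 (20.96 to 27.7).

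From Mir1298 to Mir764 the mean levels spanned 599-fold. With only the 3 members detected in both libraries the span was 24.1-fold, since Mir764 and Mir1912 rest on few counts. The level did not follow the order along the gene. The genes Mir1912 and Mir1264 are neighbours, yet Mir1264 had 402 and 213 counts against 30 and 9. In all, 12 host genes in the tables held at least 3 detected microRNA genes on their own strand. Among the 11 besides Htr2c the span of detected members ranged from 2.04-fold to 2135-fold with a median of 118-fold, and that of Htr2c ranked 9th of 12 from the widest.

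**Figure D2:**
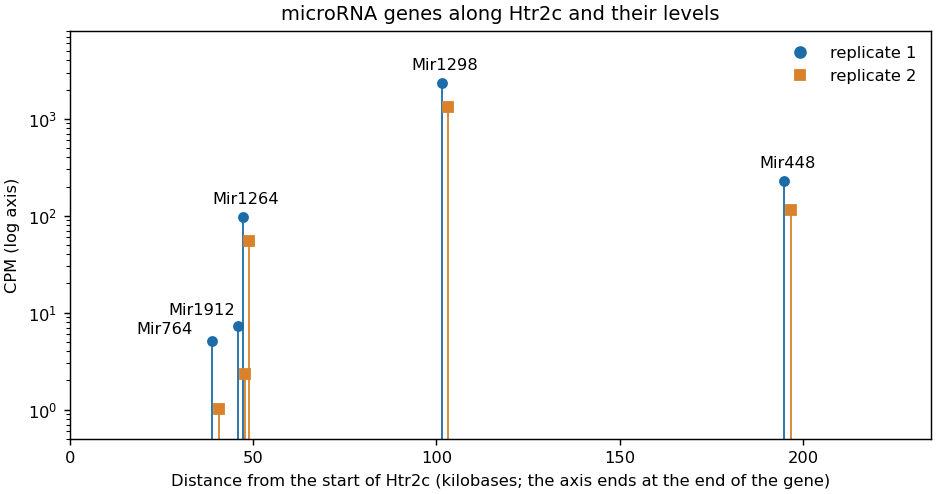
The 5 microRNA genes along Htr2c, by distance from the start of the gene in kilobases, with the level of each in CPM (log axis) in replicate 1 (circles) and replicate 2 (squares). Mir1298, mid-gene, stands highest at 2355 and 1310 CPM, while Mir764 and Mir1912 in the same intron stand lowest.

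The libraries were then compared gene by gene. Each ratio sets replicate 2 over replicate 1, on the log2 scale, with TMM library sizes and a Clopper-Pearson interval. All 7 genes were below 0, with a median of -0.74, against a median of 0.03 over the 377 detected genes, of which 180 were below 0. The 5 detected members had a median of -0.73. Scaling by library totals in place of TMM moved the median of all detected genes by -0.11. It left all 7 members below 0, with a median of -0.85. Since 5 of the 7 share 1 host gene, they are not independent of each other.

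The Htr2c intron genes had ratios between -0.73 and -2.08. That of Mir1298 was -0.74 (95% interval -0.79 to -0.69), a level 1.67-fold higher in replicate 1, and 16 of the 377 detected genes had a lower ratio. Mir448 stood at -0.88 (-1.05 to -0.72) and Mir1264 at -0.73 (-0.98 to -0.49). Their intervals all overlap that of Mir1298. Mir764 at -2.08 (-4.21 to -0.64) and Mir1912 at -1.51 (-2.81 to -0.44) had lower point values, with intervals that also contain that of Mir1298.

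Mir204 had a ratio of -0.39 (-0.45 to -0.34), which is 1.31-fold higher in replicate 1. Its interval did not overlap those of Mir1298, Mir448 and Mir1264. Mir211 stood at -0.31, and its interval of -1.05 to 0.41 contains 0 as well as the values of Mir204 and Mir1298. The difference between the libraries was thus larger for the 3 Htr2c genes with most reads than for Mir204. That gap exceeded the counting error the intervals cover, and the depth of Mir211 does not place it with either.

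In a two-sided exact binomial test on the counts, adjusted over the 475 genes tested (Benjamini-Hochberg), 6 of the 7 members were lower in replicate 2 at an adjusted p under 0.05, and Mir211 did not pass. Over all genes tested, 20.8% were called lower in replicate 2 by this test. It covers counting error only and compares these libraries, not conditions, and nothing is read from the members' count because they were chosen with these results known. By an edgeR exact test with the dispersion estimated from the same libraries, 0 of the 7 were called after adjustment and 5 had an unadjusted p under 0.05. That test called 0.211% of all genes tested, 1 of 475, and 31 had an unadjusted p under 0.05.

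**Figure D3:**
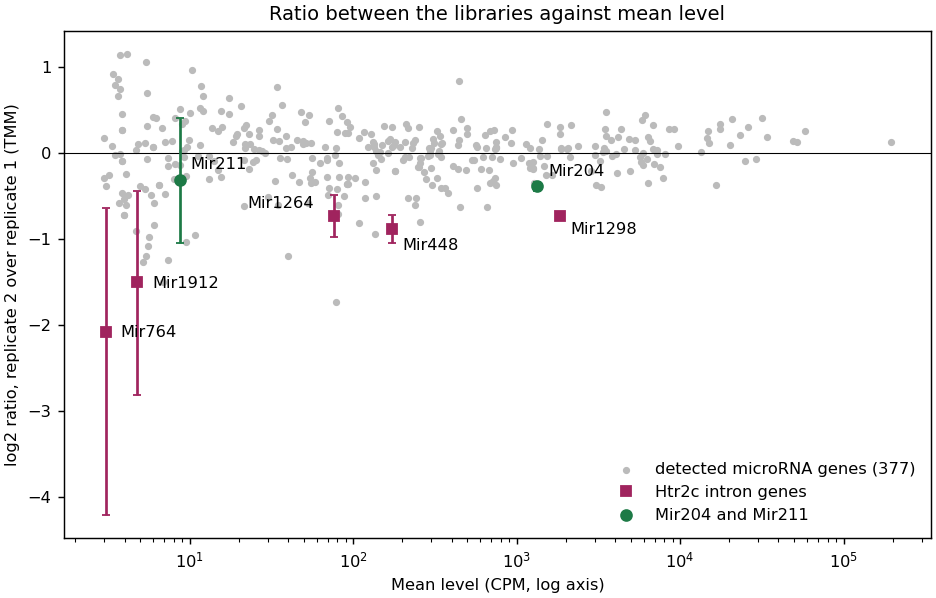
The log2 ratio of replicate 2 over replicate 1 (TMM) against the mean level in CPM (log axis), with the 377 detected genes in grey, the Htr2c intron genes as squares and Mir204 and Mir211 as circles, each with its 95% Clopper-Pearson interval. The squares lie between -0.73 and -2.08, and Mir204 lies nearer 0 at -0.39.

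The X chromosome as a whole did not show the difference seen at Htr2c. Outside Htr2c, 36 detected genes were X-linked, and 13 of them had a ratio below 0, with a median of 0.08. Of the 338 detected genes not on the X, 164 were below 0, with a median of 0.02. With library totals these medians were -0.03 and -0.09. By that scaling the detected Htr2c genes Mir1298, Mir448 and Mir1264 stood at -0.85, -0.99 and -0.84. Among the 12 host genes with at least 3 detected members, Htr2c had the lowest median ratio, -0.74. A230057D06Rik, which holds the rodent Mir344 genes, followed at -0.73, and the other medians reached up to 0.30 in 3110039I08Rik. The ratios of the detected members of Htr2c spread over 0.15 on the log2 scale. Spreads were smaller in 3110039I08Rik (0.022) and Mir99ahg (0.044) and about equal in Mcm7 (0.15), and that of A230057D06Rik was 0.60.

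**Figure D4:**
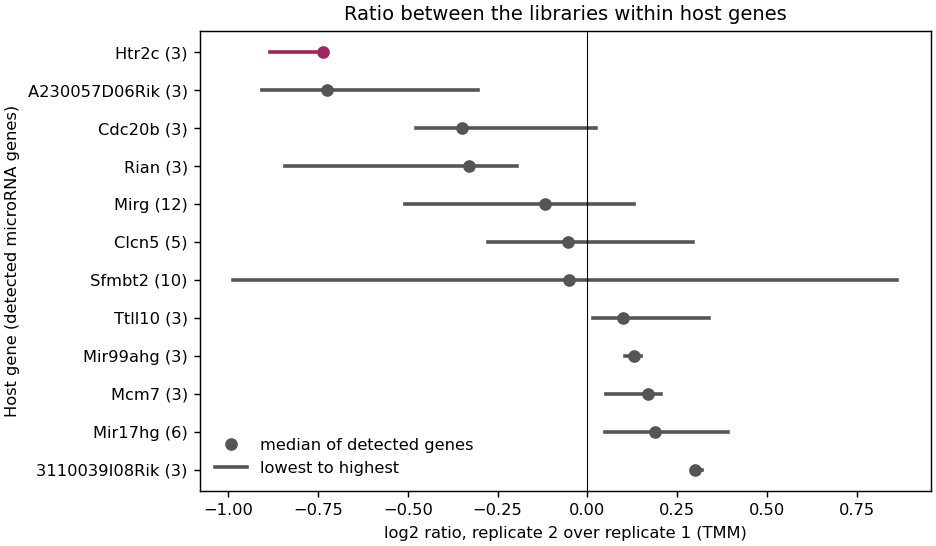
The log2 ratio of replicate 2 over replicate 1 (TMM) for the detected microRNA genes of each of 12 host genes, with the median as a point and the lowest to the highest as a line; numbers of detected genes stand beside the names. Htr2c is at the low end with a line from -0.88 to -0.73. The lines of 3110039I08Rik and Mir99ahg are shorter, and that of Mcm7 is about as long.

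Lists of microRNA genes named for other cells or organs, drawn up with results of these data known, were set beside these values. The lists need not mark cells apart from the choroid plexus, whose epithelial cells bear tufts of cilia. Which cells gave the reads of each list was not tested. Of the 5 multiciliated genes, those of cells bearing many motile cilia, all were detected, with a summed level of 8221 CPM in replicate 1 and 5884 in replicate 2. Mir449a, in the gene Cdc20b, had 30259 and 20934 counts, a ratio of -0.35, and Mir34c had 3409 and 1946 counts, a ratio of -0.62. Of the 5, 4 were below 0 and 3 of those passed the exact binomial test, while Mir449b stood at 0.02, or -0.08 with library totals, on 38 and 34 counts. The retina and sensory organ genes Mir182, Mir183 and Mir96 were 3 of 3 below 0 and past that test, with a summed level of 382 and 186 CPM and a median ratio of -0.94. No gene of these lists was at 0. Apart from Mir449b with TMM, the multiciliated and sensory organ genes had ratios below 0, as the members did. Their part in the difference was not tested.

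The direction of some other lists depended on the scaling. Over all 475 genes tested, the exact binomial test with TMM called 86 higher and 99 lower in replicate 2. With library totals the share called was not taken over all genes, so the counts that follow only describe the lists. With TMM, 6 of 7 epithelial genes were above 0 and did not pass the exact test, and 1, Mir205, passed it as lower. With library totals 4 of the 7 were below 0 and 2 passed as lower. Their sum was 1684 and 1597 CPM. The endothelial gene Mir126a had a ratio of 0.34 and passed as higher with either scaling. Of 6 detected mesenchymal and mural genes, 3 were below 0 and 3 above. Mir143, the most abundant of them, passed as higher at 0.47, as did Mir199b at 0.35, and Mir214 passed as lower at -0.81. With library totals Mir199b no longer passed and Mir140, at -0.13, passed as lower. Of 4 blood and leukocyte genes in the tables, 2 were below 0 and 2 above. Mir451a had 507 and 134 counts and passed as lower at -1.73, a lower ratio than that of any detected member. Mir144, with 109 and 164 counts, went the other way and passed as higher at 0.77, as did Mir223 at 0.30. With library totals Mir223 no longer passed. The part of the blood and leukocyte genes in the difference was not tested. Of 8 detected neural genes, 3 were below 0 and passed, and 5 were above 0 and did not pass. With library totals 7 of the 8 were below 0 and 5 passed as lower. The neural list's sum was 27236 and 23525 CPM. With library totals the medians of the epithelial, mesenchymal and neural lists changed sign, from 0.10, 0.05 and 0.02 to -0.01, -0.05 and -0.09. In tissue libraries such as these, fewer cells of a type and less RNA per cell cannot be told apart.

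**Figure D5:**
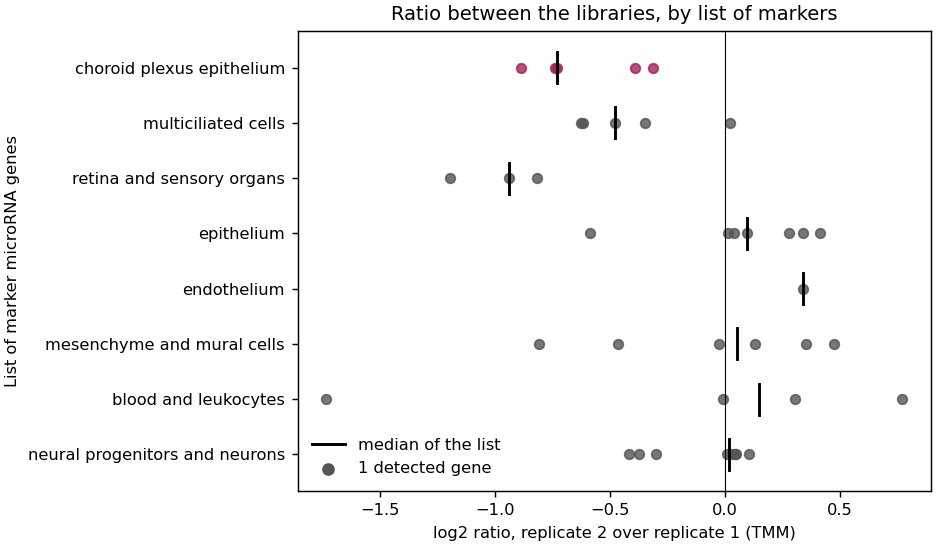
The log2 ratio of replicate 2 over replicate 1 (TMM) of each detected gene in 8 lists of marker microRNA genes, with the list's median as a vertical bar. The choroid plexus, multiciliated and sensory organ lists have medians of -0.73, -0.48 and -0.94, and the other 5 medians lie above 0, of which those of the epithelial, mesenchymal and neural lists fall below 0 with library totals.

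The genes most like each detected member were taken as the 3 with the smallest Euclidean distance in log2(CPM + 1) over the 2 libraries, a likeness of level that 2 points support only weakly. For Mir204 these were Mir1193 (distance 0.08), Mir433 (0.17) and Mir323 (0.19), all on chromosome 12. For Mir1298 the nearest was Mir598, in Xkr6, at a distance of 0.38, so no gene matched it closely in both libraries. Mir434 (0.46) and Mir425 (0.56) followed. For Mir448 they were Mir679 (0.46), Mir182 (0.50) and Mir874 (0.51), of which Mir182 is a gene of the sensory organ list. For Mir1264 they were Mir217 (0.14), Mir383 (0.16) and Mir702 (0.21). For Mir211 they were Mir615 (0.11), Mir344c (0.13) and Mir3064 (0.16). No member was among the 3 genes most like another member.

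Reads on the strand opposite to the gene numbered 0 at each of the 7 genes in both libraries, so the counts on either strand equalled those on the own strand.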

How the data were processed

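The deposited tables hold raw counts of reads per microRNA gene made by the authors on mm10 with the GENCODE M4 annotation, per the read-me texts deposited with them. Neither aligner nor counter is given in the sources used here. Counts on the gene's own strand were used, and library sizes exclude the 4 summary rows. Of 1973 identifiers, 1894 matched GENCODE M21, and the 79 others held 1 and 4 counts. CPM and ratios were computed here (edgeR 4.0.16, TMM, prior count 0.5; DESeq2 1.42.0 size factors as an alternative; R 4.3.3, scipy 1.17.1). The exact binomial test covered genes whose 2 libraries summed to at least 10 counts. It was tried on simulated counts that held counting error only, so that trial does not show how the test behaves on these libraries. The libraries were not copies of each other (chi-square 32540 on 376 degrees of freedom over detected genes).

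The members, lists and rules were chosen with earlier results of these data known. Named genes were the 7 members, the 3 genes nearest to each detected member in level, leading detected genes of each list, genes in the same host and genes sharing a seed. Any further gene was named after its values were seen. Mature sequences come from RefSeq (GRCm38.p6), and the search left out 1 chromosome. Hairpins were folded with RNAfold 2.7.2.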

Additional observations from a re-analysis of the deposited data

How the results depend on the processing

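Leaving out 1 of 2 libraries leaves the value of the other, which cannot lie beyond the spread of the pair, so it is no check of a mean level or share. Counting reads on either strand, or leaving genes with a copy out of the denominator, moved the shares and the levels of Mir204 and Mir1298 by less than the replicate spread. With all reads as the denominator the summed share of the 7 genes was 0.131% and that of the Htr2c intron genes 0.0799%. Mir204 and Mir1298 then stood at 511 and 701 counts relative to 1000000 reads. Without the 10 most abundant genes in the denominator the shares were 0.720% and 0.438%. The levels were then 2810 and 3838 counts relative to 1000000 of the remaining gene counts. These moves follow from the denominators. The log2 ratio of the summed 7 genes was -0.61 with TMM, -0.65 with DESeq2 size factors and -0.72 with library totals. The span within Htr2c ran from 462-fold to 1280-fold when 1 library was left out, and was 24.1-fold over the detected members. The number of members past the exact binomial test was 6, and 0 with edgeR's exact test, whose dispersion rests on the difference between these libraries. With at least 50 counts in each library 4 members were tested and 4 passed. The share of all genes passing at that floor was not taken, so nothing is read from this count. No paired analysis was possible because there is 1 group. Depth limits Mir211, Mir1912 and Mir764, which had 41 counts or fewer in either library.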

Other observations

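Hairpins of 6 members were in the RefSeq table, and Mir1264 was the member without one. Folded with RNAfold, all 6 had a lower minimum free energy per base than the median of the 1005 hairpins folded, which was -0.41 kcal/mol per base. They ranged from -0.54 for Mir211 and -0.50 for Mir204 to -0.45 for Mir448. Mir1298 and Mir1912 both had -0.47 kcal/mol per base, while their mean levels were 1832 and 4.79 CPM. These are values of the sequences, and no relation to the read counts was tested.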
